A study of Homo sapiens with 8 samples.

Results

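Interferon-stimulated genes are the genes whose transcription rises when a cell senses foreign nucleic acid or receives an interferon signal. Here 39 of them were followed, out of 60675 genes measured, in 4 lines of human embryonic stem cells. The 39 members are a list chosen on the measured values of IFI44 and OASL, which had been seen among the largest rises of the late passages (P3 and P4) over the early ones (P1 and P2), and filled up with well-known genes of the same response. The comparison of the late with the early lines is therefore given for the members as a description. So are P3 and P4 hESCs against P1 hESCs, which use the same samples. Genes were called in these comparisons by a threshold on fold change and adjusted p. For the members these calls are labels and are not read as a test of the list. The differences between P2 and P1 hESCs and between P4 and P3 hESCs were not used for the choice and were tested.

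The cells were H9 (WA09), an established human embryonic stem cell line, kept without feeder cells on Matrigel in mTeSR1 medium and split with dispase. P1, P2, P3 and P4 hESCs are this one line in the passage 40s, 100s, 200s and 300s, with no treatment, and by the study's account P3 and P4 hESCs carry a copy number gain at 20q11.21. Each line had 2 samples, and nothing in the labels says that these were separate cultures, so p-values measure the spread between samples, which may be technical. Time in culture, the copy number gain and any other change between these 4 lines cannot be told apart, since each passage is a single line. P1 and P2 hESCs are called the early lines and P3 and P4 hESCs the late lines.

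In the textbook account of this response, RNA sensors such as RIG-I (RIGI) and MDA5 (IFIH1) signal through MAVS to switch on interferon genes. Secreted interferons bind receptors that activate JAK1 and TYK2, and these phosphorylate STAT proteins, which join IRF9 in a complex called ISGF3. ISGF3 binds a DNA motif, the interferon-stimulated response element (ISRE), and switches on antiviral genes such as the IFIT, OAS and MX families. Several of these genes can also be switched on directly by IRF3 or IRF1 through the same motif. Pluripotent stem cells are known for a weak response to interferon and for expressing some of these genes, the IFITM family among them, without it.

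The ISRE is a motif that many, but not all, of the members hold near their start, so stretches before the start of a few of them are shown. Promoter windows from 250 bases before to 50 bases after the annotated start were taken from RefSeq (GRCh38.p14), which gave an entry for 30 of the 39 members, with none for IRF7, DHX58, USP18, OAS2, OASL, IFIT2, IFITM2, MX2 and TRIM22. In the stretches below, each of 70 bases written 5′ to 3′ on the strand of the gene, the capitals mark each match to the core of the ISRE, GAAANNGAAA, or to the same core on the other strand, TTTCNNTTTC, where N is any base and overlapping matches run together. ISG15, HERC5, IFIT1, SAMD9 and IFI44 are shown because their RNA was called higher in the late lines (a log2 fold change above 1 with an adjusted p under 0.01). IFIT5 and BST2 are shown because they hold the core and were not called, and IFI44L because it holds the core and was too low to test. OAS1 is shown as a gene that was called higher and holds no match to this core. Its stretch does hold gaaacgaaa, where the runs of GAAA lie closer together than the core allows.
ISG15 (chr1:1013360-1013429, + strand): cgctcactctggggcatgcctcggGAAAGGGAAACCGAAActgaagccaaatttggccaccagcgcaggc
HERC5 (chr4:88457015-88457084, + strand): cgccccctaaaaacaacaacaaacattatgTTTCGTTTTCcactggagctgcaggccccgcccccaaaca
IFIT1 (chr10:89392490-89392559, + strand): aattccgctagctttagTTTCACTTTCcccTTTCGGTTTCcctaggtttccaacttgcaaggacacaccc
IFIT5 (chr10:89414498-89414567, + strand): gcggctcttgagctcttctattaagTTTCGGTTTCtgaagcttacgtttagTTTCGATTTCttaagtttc
SAMD9 (chr7:93118076-93118145, − strand): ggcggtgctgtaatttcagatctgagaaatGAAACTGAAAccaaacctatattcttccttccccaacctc
IFI44 (chr1:78649741-78649810, + strand): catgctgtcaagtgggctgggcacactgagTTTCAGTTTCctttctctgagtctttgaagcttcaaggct
IFI44L (chr1:78620345-78620414, + strand): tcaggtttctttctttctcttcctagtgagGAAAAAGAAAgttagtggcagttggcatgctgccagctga
BST2 (chr19:17405715-17405784, − strand): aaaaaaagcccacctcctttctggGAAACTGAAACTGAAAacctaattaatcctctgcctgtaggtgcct
OAS1 (chr12:112906892-112906961, + strand): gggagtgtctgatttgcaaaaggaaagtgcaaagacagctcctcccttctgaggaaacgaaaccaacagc

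A match to the core on either strand was present in 20 of the 30 members with a window (66.7%), against 1195 of all 27305 genes with a window (4.38%). The gamma-activated site, TTCNNNGAA, which reads the same on both strands, was present in 9 of the 30 members (30%) and in 9.38% of all genes. The members were chosen as known interferon-stimulated genes, a class switched on through the ISRE in the account above, so these shares describe the list and are no finding. The core was present in 6 of the 8 members with a window that were higher in the late lines. It was present in 12 of the 18 tested members with a window that were not higher, and in 2 of the 4 members too low to test. These shares were not compared by a test, and the higher members OAS2, OASL and IFIT2 had no window. A match is a run of letters and was not shown here to be bound. Runs of GAAA at another spacing, as in OAS1, were not counted, so these counts depend on the core chosen.

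**Figure D1:**
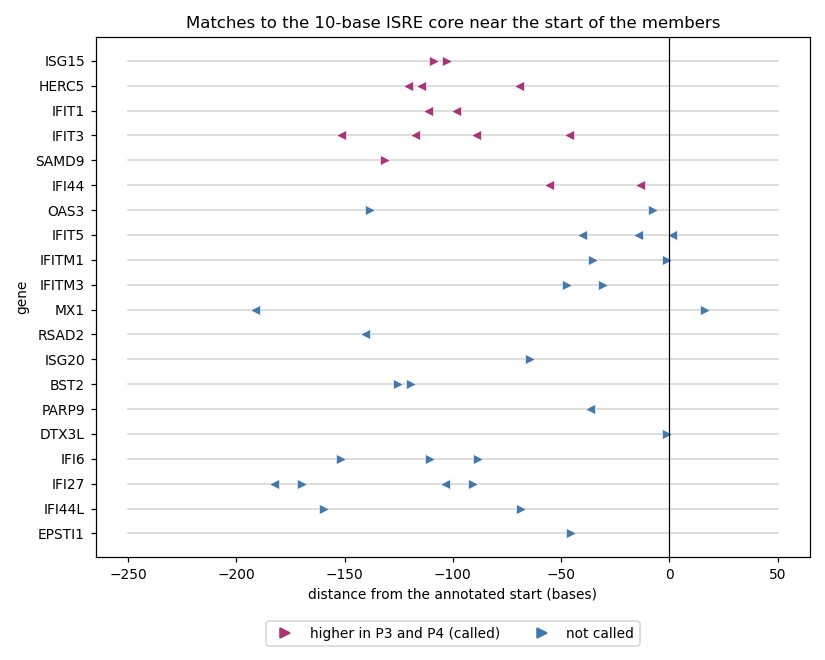
Position of each match to the ISRE core (triangles, pointing right for the strand of the gene and left for the other strand) in bases from the annotated start, for the 20 members with a match in any of their promoter windows. The 6 members called higher in the late lines (purple) have their matches between 156 and 9 bases before the start, a stretch that also holds matches of members that were not called (blue).

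The samples held between 26874899 and 38095600 expected counts, so that 3 counts, taken as the smallest detectable level, lay between 0.073 and 0.103 CPM (counts scaled by library size) after TMM normalization. This limit covers counting error only. The share of mitochondrial counts was over 15% in 3 samples (P1 replicate 2, P3 replicate 1 and P4 replicate 1) and between 5.89% and 9.84% in the other 5. All 10 markers of pluripotent stem cells, among them POU5F1, NANOG and SOX2, were at 27.5 TPM or more in every sample. Of these, PODXL was lower in the late lines without overlap (494 to 610 TPM early, 260 to 369 TPM late). The others overlapped between the early and late lines by TPM. Of 12 blood and immune cell markers, none was over 1 TPM in all samples, and their summed level was 2.17 to 3.7 TPM in the early and 2.41 to 4.93 TPM in the late lines. The pan-leukocyte gene PTPRC was at 0.18 TPM or less in every sample and MS4A1 and HBG1 had no count. The fibroblast genes COL3A1 and LUM were at or near 0, while COL1A1, COL1A2 and THY1 were expressed in all lines. The summed level of all 9 fibroblast and mesenchyme markers was 463 to 632 TPM in the early and 495 to 780 TPM in the late lines. This sum was mostly THY1, which overlapped (232 to 460 TPM early, 397 to 648 TPM late), and it hides falls in other markers. By TPM, COL1A1 was lower in the late lines without overlap (92.8 to 150 TPM early, 51.3 to 64.1 TPM late), while by CPM it overlapped. PDGFRB was lower without overlap on both scales (5.48 to 10.04 TPM early, 2.17 to 3.98 TPM late). The summed level was 66.2 to 86.2 TPM in the early and 37.8 to 88.9 TPM in the late lines for 6 endothelial markers, mostly KDR, 135 to 188 and 125 to 213 TPM for 7 neuroectoderm markers, mostly NES, and 2.12 to 4.46 and 1.53 to 4.35 TPM for 8 mesendoderm markers. The 9 trophoblast and amnion markers, mostly KRT7, summed to 12.3 to 19.7 TPM in the early and 6.53 to 12.2 TPM in the late lines, without overlap. The part of these markers in the differences below was not tested. In bulk RNA, a change in the number of expressing cells and a change in RNA per cell cannot be told apart.

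A gene counted as called when its absolute log2 fold change was above 1 with an adjusted p-value under 0.01 in edgeR's quasi-likelihood test, adjusted over all genes tested by the Benjamini-Hochberg method. The filter on low counts kept 19499 genes and 35 of the 39 members, leaving out RSAD2, SAMD9L, IFI44L and XAF1. Of the 35, 5 (OAS1, OAS2, OASL, SAMD9 and IFI44) had at most 3 counts in every early sample, so they passed the filter only through the late lines and had to differ. In the late lines against the early lines, 11 members were called higher, against 1.06% of all tested genes, and no member was called lower, against 1.14%. This contrast chose the list, and the counts are given without a reading. The members called higher were ISG15, HERC5, IFI16, IFIT1, IFIT2, IFIT3, OAS1, OAS2, OASL, SAMD9 and IFI44. The median log2 fold change was 0.66 over the 35 members and 0.0059 over all tested genes. With those 5 genes at the lower bound of their fold the median is 0.66 too, since all 5 lie above it on either scale. By CPM, 16 members had all 4 late samples above all 4 early samples (8.38% of all tested genes) and 2 had them below (9.19%). Without the 3 samples of over 15% mitochondrial counts, 4 members were called (OAS2, IFIT1, IFIT2 and IFIT3), among 61 of all genes.

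**Figure D2:**
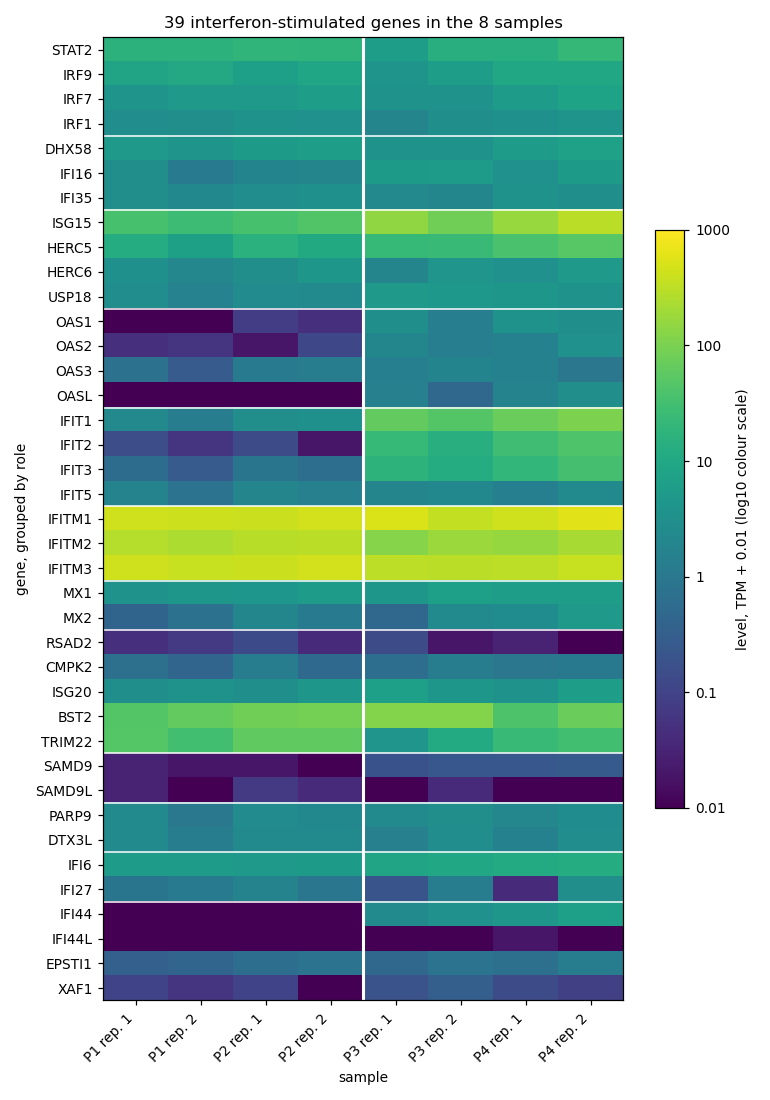
Level of each of the 39 members (rows, grouped by role) in each of the 8 samples (columns), as TPM + 0.01 on a log10 colour scale. The early lines are left of the white line and the late lines right of it. IFI44 and OASL change from 0 in the 4 early samples to between 0.49 and 6.77 TPM in the late ones, the IFITM genes lie at 124 TPM or more everywhere, and IFI44L is dark throughout.

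The IFIT genes, which encode proteins that bind viral RNA with a foreign 5′ end, lie side by side on chromosome 10 and showed the highest levels among the genes that were low in the early lines. IFIT1 (chr10:89392546-89406486, the 5′ cap sensor of the family) was at 2.28 and 1.28 TPM in P1, 2.94 and 3.18 in P2, 63.9 and 46.0 in P3 and 73.3 and 104.7 TPM in P4 hESCs. Its log2 fold change was 4.99 ± 0.31 (standard error) in the late over the early lines, 5.11 ± 0.35 in P3 and 5.61 ± 0.35 in P4 over P1 hESCs. The lowest late sample of IFIT1 was far above the highest early one, and by TPM both P4 samples were above both P3 samples, while by CPM the lines P3 and P4 overlapped.

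IFIT2 (chr10:89283694-89309276), which binds AU-rich RNA and pairs with its neighbours, was almost off in the early lines, with 0.14 and 0.05 TPM in P1 and 0.13 and 0.01 TPM in P2 hESCs (1 to 13 counts). It reached 22.1 and 13.8 TPM in P3 and 29.7 and 42.3 TPM in P4 hESCs, with a log2 fold change of 8.47 ± 0.52 in the late over the early lines. This was the largest fitted change among members with more than 3 counts in an early sample. The exons of IFIT2 overlap those of AL353751.1 on the same strand and of LIPA on the other, so part of its reads could belong to them.

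IFIT3 (chr10:89327894-89340971), a partner that stabilizes IFIT1, was at 0.58, 0.26, 0.87 and 0.63 TPM in the 4 early samples, in the order P1 then P2. In P3 hESCs it was at 17.3 and 12.6 TPM and in P4 hESCs at 20.7 and 33.9 TPM, and its log2 fold change was 5.31 ± 0.37 in the late over the early lines. The groups did not overlap, and P3 replicate 2 was the lowest and P4 replicate 2 the highest of the late samples for each of IFIT1, IFIT2 and IFIT3. The fourth gene of the cluster, IFIT5, stayed between 0.81 and 2.37 TPM in all 8 samples and its groups overlapped, with a log2 fold change of 0.56 ± 0.25. Its promoter, printed above next to that of IFIT1, holds 2 upstream matches to the ISRE core, as that of IFIT1 does.

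The OAS genes encode the enzymes (OAS1, OAS2, OAS3) that sense double-stranded RNA and make oligoadenylates to activate RNase L, and OASL, a relative without this activity that assists RIG-I. OASL (chr12:121019111-121039242) had 0 counts in all 4 early samples, and 92 and 30 counts (1.49 and 0.49 TPM) in P3 and 107 and 148 counts (1.74 and 2.91 TPM) in P4 hESCs. This is at least 32.8-fold higher in the late lines, measured against the CPM of 3 counts in an early sample, at least 19.8-fold in P3 and at least 45.8-fold in P4 hESCs. OASL was thus not detected at this depth in any early sample, and it was low but detected in every late one.

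OAS1 (chr12:112906777-112933222) had no count in P1 and 2 counts in each P2 sample. It reached 3.07 and 1.35 TPM in P3 and 3.67 and 3.15 TPM in P4 hESCs, at least 32.5-fold over the early lines. OAS2 (chr12:112978395-113011723), on the far side of OAS3, had 1 to 3 counts in the early samples and 1.94 and 1.34 TPM in P3 and 1.53 and 3.41 TPM in P4 hESCs, at least 51.6-fold higher. OAS3, which lies between these genes, was detected in every early sample. It was at 0.75 and 0.26 TPM in P1, 1.07 and 1.23 in P2, 1.46 and 1.83 in P3 and 1.53 and 0.93 TPM in P4 hESCs, with a log2 fold change of 0.80 ± 0.31 in the late over the early lines. Over P1 hESCs its log2 fold change was 0.97 ± 0.33 in P2, 1.57 ± 0.33 in P3 and 1.14 ± 0.33 in P4 hESCs, and it was called in no comparison. Its late samples were above its early ones by CPM but not by TPM, since P4 replicate 2 lay below both P2 samples. OAS1 shares exon sequence with the antisense transcript AC004551.1, and its isoforms were not separated.

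ISG15 is a ubiquitin-like protein that is attached to other proteins by the ligase HERC5 and removed by the protease USP18. ISG15 (chr1:1001138-1014540) was at 34.4 and 26.8 TPM in P1, 35.8 and 44.9 in P2, 151 and 82.1 in P3 and 169 and 304 TPM in P4 hESCs. It was thus well expressed in the early lines already, and all late samples were higher, with a log2 fold change of 2.43 ± 0.32 (2.12 ± 0.37 in P3 and 2.89 ± 0.38 in P4 over P1 hESCs). HERC5 (chr4:88457117-88506163) was at 12.7 and 6.88 TPM in P1, 15.6 and 10.9 in P2, 22.5 and 24.1 in P3 and 36.5 and 49.99 TPM in P4 hESCs, a log2 fold change of 1.67 ± 0.27. Its fold change was smaller than that of ISG15 in both late lines, a difference that was not tested, and its call was lost without P1 replicate 1, P1 replicate 2, P2 replicate 2 or P4 replicate 1.

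The neighbour HERC6, a related ligase, stayed between 1.89 and 4.99 TPM with overlapping groups and a log2 fold change of 0.16 ± 0.19. USP18, which also restrains signalling at the interferon receptor, was between 1.66 and 2.88 TPM in the early and between 3.64 and 4.82 TPM in the late lines, without overlap. Its log2 fold change of 1.08 ± 0.24 was not called in the main comparison but was with DESeq2. ISG15 overlaps the antisense transcript AL645608.3, and USP18 has near copies in the genome, so reads could have been split between them.

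IFI16, a nuclear DNA sensor (chr1:158999968-159055155), was at 2.94 and 1.20 TPM in P1, 1.76 and 1.85 in P2, 5.23 and 5.84 in P3 and 3.30 and 5.20 TPM in P4 hESCs. Its mean level was lower in P4 than in P3 hESCs, as was that of SAMD9 by CPM but not by TPM, and that of no other member called higher. It had a log2 fold change of 1.71 ± 0.34 in P3 and 1.18 ± 0.34 in P4 over P1 hESCs, and the P4 value was not called. The call of IFI16 in the late over the early lines was lost with the replicate number as a block and without either sample of P1, P2 or P3 hESCs. Of its list of sensing regulators, DHX58 (LGP2, a regulator of RIG-I and MDA5) stayed between 3.65 and 7.42 TPM and IFI35 between 1.94 and 3.57 TPM, both with overlapping groups.

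IFI44, a cytoplasmic protein of unsettled function (chr1:78649796-78664078), had no count in any early sample. It had 97 and 91 counts (2.42 and 3.34 TPM) in P3 and 119 and 125 counts (4.42 and 6.77 TPM) in P4 hESCs, at least 36.7-fold higher in the late than in the early lines. Its paralog IFI44L, the next gene on chromosome 1, had 1 count in P4 replicate 1 and none in the other 7 samples, which gives no fold. Both promoters hold the ISRE core, as printed above. Of this adjacent pair, one gene was thus detected in all 4 late samples and the other in none at more than 1 count.

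The other adjacent pair, SAMD9 and SAMD9L on chromosome 7, encodes antiviral and growth-restraining proteins. SAMD9 (chr7:93099513-93118023) had 0 to 2 counts in the early samples and 40, 41, 41 and 29 counts in P3 and P4 hESCs, a level of 0.17 to 0.25 TPM and at least 12.7-fold higher. SAMD9L had at most 3 counts in any sample. As with IFI44 and IFI44L, the paralogs differed, though SAMD9 stayed below 1 TPM everywhere.

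MX1 and MX2 are GTPases that trap viral nucleocapsids and are among the most used readouts of interferon. MX1 was at 3.75 and 4.40 TPM in P1, 4.23 and 5.67 in P2, 4.36 and 6.53 in P3 and 6.21 and 5.97 TPM in P4 hESCs, with a log2 fold change of 0.66 ± 0.18 and no call. MX2 (chr21:41361943-41409390) was at 0.40 and 0.77 TPM in P1, 1.92 and 1.07 in P2, 0.46 and 2.44 in P3 and 2.68 and 5.15 TPM in P4 hESCs. Its log2 fold change over P1 hESCs was 1.79 ± 0.50 in P3 and 2.94 ± 0.50 in P4 hESCs, called in P4 hESCs only. By TPM P3 replicate 1 lay among the P1 samples, while by CPM it lay above both (1.11 against 0.66 and 0.72 CPM). On either scale the 2 samples of P3 hESCs differed by more than the lines P1 and P2 did. Viperin (RSAD2), an enzyme that makes a chain-terminating nucleotide, had 0 to 8 counts in every sample, and its neighbour CMPK2, with overlapping exons on the other strand, was between 0.41 and 1.26 TPM.

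The IFITM genes, whose products block viral entry at membranes, were at 124 TPM or more in every sample, and IFITM1 and IFITM3 were the most abundant members in all 4 lines. IFITM1 was between 405 and 452 TPM in the early and between 341 and 584 TPM in the late samples, a log2 fold change of 0.26 ± 0.21. IFITM2 was at 272 and 239.6 TPM in P1, 289 and 303 in P2, 124 and 179 in P3 and 159 and 220.1 TPM in P4 hESCs, below the early samples in every late one, with a log2 fold change of -0.71 ± 0.13 that was too small to be called. IFITM3 was between 384 and 452 TPM in the early and between 301 and 374 TPM in the late samples by TPM, while its groups overlapped by CPM (log2 fold change -0.24 ± 0.15). The 3 genes are near-identical in parts, and exons of IFITM1 and IFITM2 overlap on the same strand, so reads could have been split between them.

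TRIM22, an antiviral ubiquitin ligase (chr11:5689689-5737089), went the other way. It was at 48.5 and 30.6 TPM in P1, 60.0 and 59.7 in P2, 4.02 and 11.5 in P3 and 23.5 and 30.7 TPM in P4 hESCs. The log2 fold change over P1 hESCs was -2.54 ± 0.31 in P3, called lower, and -0.75 ± 0.29 in P4 hESCs, not called. By CPM all late samples were below all early ones, and by TPM P4 replicate 2 reached the lower P1 sample. TRIM22 overlaps exons of OR56B1 on the same strand.

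None of the transcription factors that drive the response was called in any comparison. STAT2 was at 16.0 and 16.5 TPM in P1, 18.4 and 18.0 in P2, 6.25 and 13.9 in P3 and 14.1 and 21.6 TPM in P4 hESCs (log2 fold change of the late over the early lines -0.27 ± 0.22). IRF9, its partner in ISGF3, was at 8.35 and 10.4 TPM in P1, 6.59 and 8.94 in P2, 3.81 and 6.03 in P3 and 9.57 and 10.1 TPM in P4 hESCs (-0.11 ± 0.31). Both were lowest in P3 replicate 1, a sample in which IFIT1, IFIT2, IFIT3 and ISG15 were above every early sample.

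IRF7, which amplifies interferon production, was at 3.91 and 5.05 TPM in P1, 4.78 and 6.45 in P2, 3.57 and 3.54 in P3 and 5.47 and 8.05 TPM in P4 hESCs (0.22 ± 0.25). IRF1, an ISRE-binding factor of its own, was at 2.82 and 2.89 TPM in P1, 3.70 and 3.34 in P2, 1.87 and 3.15 in P3 and 3.25 and 3.91 TPM in P4 hESCs (0.09 ± 0.21). For all 4 factors the late and early samples overlapped, and only for STAT2 did the log2 fold change of the late over the early lines keep its sign under every alternative. IRF9 shares exons with AL136295.5 on the same strand, and IRF1 with C5orf56 and AC116366.3 on the other.

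The remaining members were not called in any comparison. IFI6, a mitochondrial and endoplasmic reticulum protein, was between 5.06 and 5.47 TPM in the early and between 8.15 and 12.6 TPM in the late samples without overlap (log2 fold change 1.08 ± 0.21), while its relative IFI27 ranged from 0.03 to 2.96 TPM with no pattern by line. The tethering protein BST2 was at 45.03 and 61.5 TPM in P1, 81.5 and 91.7 in P2, 118 and 117 in P3 and 39.5 and 72.9 TPM in P4 hESCs, so it was highest in P3 hESCs, and by TPM the P4 samples lay on either side of the P1 samples, while by CPM they lay between them. ISG20, an exonuclease, was between 3.13 and 6.71 TPM, EPSTI1 between 0.33 and 1.29 TPM, and the head-to-head pair PARP9 and DTX3L, whose exons overlap on opposite strands, between 1.01 and 2.97 TPM. XAF1, a pro-apoptotic protein, had 0 to 13 counts.

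**Figure D3:**
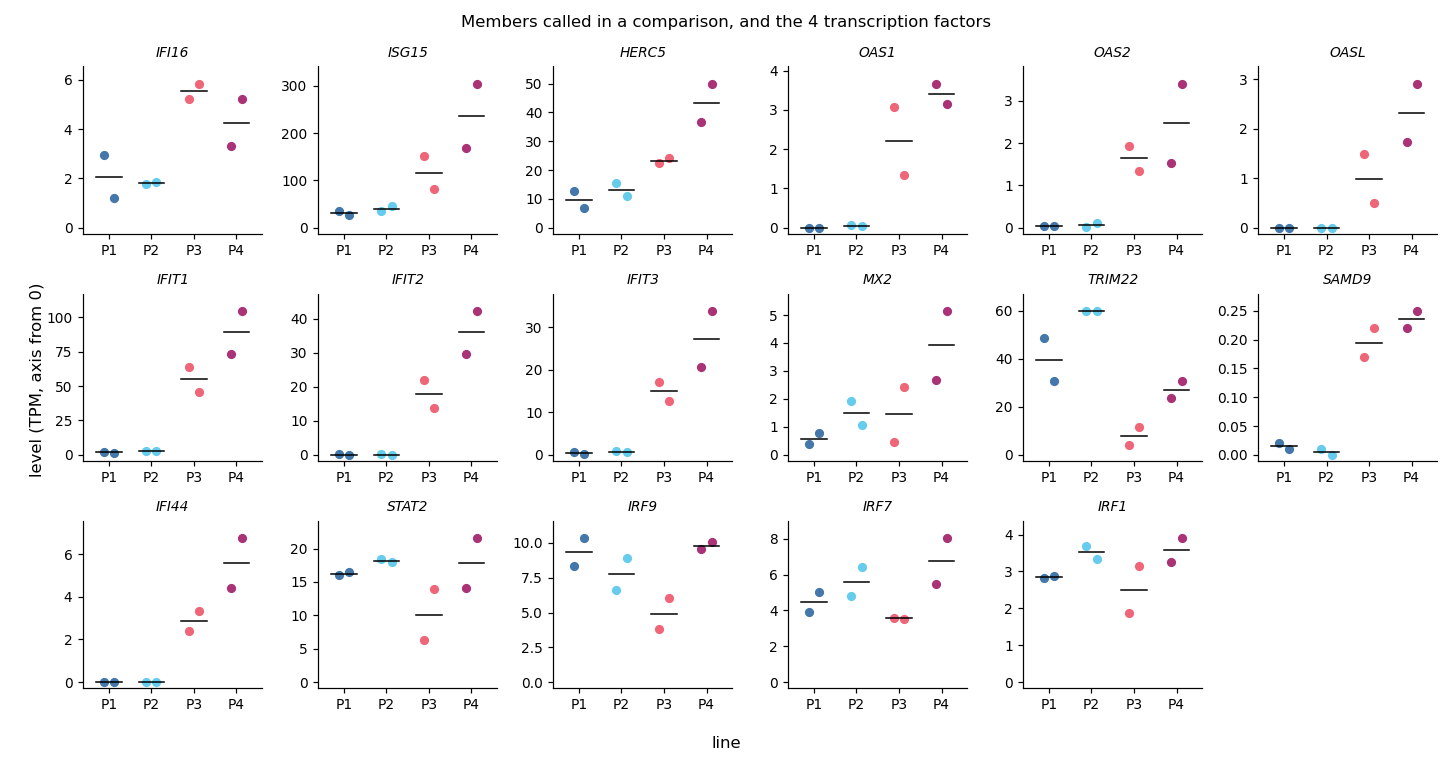
Level of the 13 members called in at least 1 comparison and of STAT2, IRF9, IRF7 and IRF1 in each sample (points, TPM on a linear axis from 0) by line, with the mean of the 2 samples of each line (bars). IFIT1, IFIT2, IFIT3, OAS1, OAS2, OASL and IFI44 lie near 0 in both early lines, TRIM22 is lowest in P3, and the transcription factors overlap between the early and late lines.

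Taken by line, 11 members were called higher in P3 than in P1 hESCs, against 1.3% of all tested genes, and 1 (TRIM22) was called lower, against 2.63%. In P4 over P1 hESCs, 11 members were called higher, against 0.954% of all tested genes, and none was lower, against 1.16%. Both comparisons share the P1 samples and follow from the choice of the list, so they are set side by side only. Of the members called higher, 10 were the same in P3 and P4 hESCs, IFI16 was called in P3 hESCs only and MX2 in P4 hESCs only. The median log2 fold change over the 35 members was 0.72 in P3 and 0.89 in P4 hESCs over P1 hESCs, against -0.022 and -0.0095 over all tested genes. These counts rested on the P1 samples, since 7 members were called in P3 hESCs without P1 replicate 2, and in P4 hESCs 7 were called without P1 replicate 1 and 6 without P1 replicate 2. OAS1, OAS2, IFIT1, IFIT2, IFIT3 and IFI44 were called in all of these fits. Of these, OAS1, OAS2 and IFI44 had at most 3 counts in every early sample and passed the filter only through the late lines. That they stayed called is therefore a description only. The share of all genes called in the fits without a P1 sample is not given here.

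**Figure D4:**
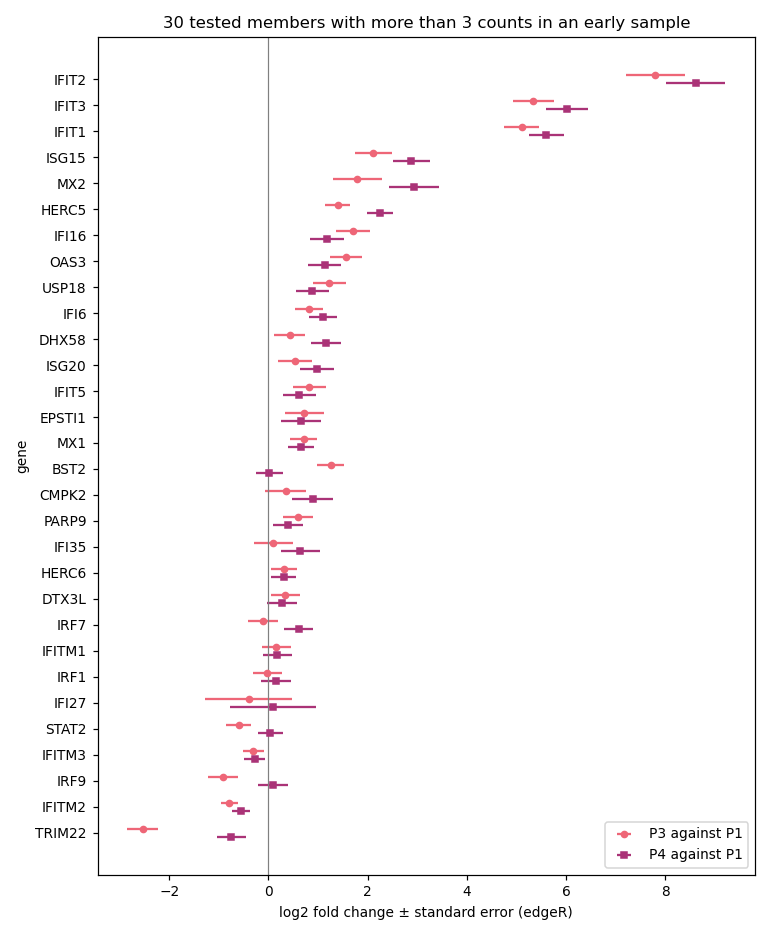
Log2 fold change over P1 hESCs with its standard error for P3 hESCs (circles) and P4 hESCs (squares), for the 30 tested members with more than 3 counts in at least 1 early sample. IFIT2, IFIT3 and IFIT1 lie above 5 in both lines, 24 of the 35 tested members were not called in the late over the early lines, and TRIM22 lies at -2.54 in P3 and -0.75 in P4 hESCs.

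Between P2 and P1 hESCs, no member was called with edgeR's quasi-likelihood test, and none of all tested genes was (0%). At an unadjusted p-value under 0.05, 3 members (OAS1, OAS3 and MX2, each with a positive log2 fold change) and 1782 of all genes (9.14%) stood out, and the lowest adjusted p-value of a member was 0.47 (OAS3). OAS1 had no count in P1 and 2 counts in each P2 sample, which is below the detectable level, so no difference is read from it. DESeq2 called no member either, and 40 of all genes. The median log2 fold change over the members was 0.15, with 22 of 35 above 0. A difference of the size seen in the late lines in IFIT1, ISG15 or IFI44 was thus not detected in P2 hESCs.

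Between P4 and P3 hESCs, 1 member was called, TRIM22, which was higher in P4 hESCs, against 0.815% of all tested genes in either direction. Its log2 fold change was 1.79 ± 0.30 with an adjusted p of 0.0078 by the quasi-likelihood test of edgeR, and both P4 samples were above both P3 samples. The adjusted p lay between 1.35e-10 and 0.15 over the alternatives and above the threshold in all but 1 of the fits without a single sample, while the log2 fold change stayed between 1.14 and 2.42. The opposite difference in BST2 (-1.24 ± 0.28, adjusted p = 0.030 by the same test of edgeR) did not pass the threshold. BST2 and TRIM22 were the only members with an adjusted p under 0.05 here.

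None of the 11 members called higher in the late lines passed the same test between P4 and P3 hESCs, either with edgeR or with DESeq2. ISG15, HERC5 and OASL had an unadjusted p-value under 0.05 in edgeR's quasi-likelihood test, as did 19.2% of all tested genes. The log2 fold changes of the 11 in P4 over P3 hESCs lay between -0.53 (IFI16) and 1.21 (OASL). Of the 11, 9 were above 0, against 50.6% of all tested genes, and the lowest adjusted p by the same test was 0.090 (HERC5). By TPM, 10 of the 11 had a higher mean in P4 hESCs and 9 of 11 were highest in P4 replicate 2, while by CPM these were 9 and 8 of 11. TPM values ran higher in P4 hESCs over all tested genes too. Their median log2 fold change over P3 hESCs was 0.098 for log2(TPM + 1) and 0.15 for log2(TPM + 0.1), against 0.0061 in edgeR. The 2 samples of a line also differed. In P4 hESCs 9 of the 11 were higher by CPM in replicate 2, the sample with the lower mitochondrial share (5.89% against 17.2%). In P3 hESCs none of the 11 was higher in replicate 2, which had the lower share there too (7.53% against 18.4%). By TPM these counts were 10 of 11 and 4 of 11. Of all 35 tested members, 23 in P4 and 9 in P3 hESCs were higher in replicate 2 by CPM, and 30 and 20 by TPM. The share over all genes was not counted. The part of the mitochondrial share in these differences was not tested.

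Of 86 other genes of the pathway, 70 were tested, and 7 were called higher and 1 lower in the late over the early lines, against the 1.06% and 1.14% of all tested genes. Of the 7, IFNL1, CXCL10, CCL5 and APOL1 had at most 3 counts in every early sample, so they passed the filter only through the late lines and had to differ. The median log2 fold change was 0.17 over the 70 and 0.0059 over all tested genes. Among 11 interferon ligands only IFNL1 could be tested. IFNL1, a type III interferon, had no count in the early lines and was at 2.38 and 0.98 TPM in P3 and 3.91 and 7.92 TPM in P4 hESCs, at least 23.0-fold higher, with paralogs that could share its reads. IFNA1, IFNA2, IFNG, IFNK and IFNW1 had no count in any sample. The type I interferon IFNB1, too low to test, had no count in the early samples. It had 9 and 2 counts in P3 and 5 and 4 counts in P4 hESCs (0.11 to 0.39 TPM). With 2 counts, IFNB1 was not detected in P3 replicate 2. None of the 6 receptor genes, and none of JAK1, JAK2, TYK2 and STAT3, was called.

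Of 15 tested sensors and adaptors, 2 were called higher in the late lines. These were RIGI, at 1.83 to 2.7 TPM in the early and 4.22 to 8.22 TPM in the late samples (log2 fold change 1.60 ± 0.19), and IFIH1, at 0.51 to 0.77 and 2.71 to 5.82 TPM (2.62 ± 0.25). Both encode sensors that recognize double-stranded RNA in the cytoplasm.

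Among the 8 negative regulators, SOCS3 was called lower in the late lines (-1.35 ± 0.24), at 21.6 to 32.1 TPM in the early and 5.79 to 17.4 TPM in the late samples. This call was lost in 11 of 18 alternatives, among them the replicate block, both TPM scales and every fit without a single sample except that without P4 replicate 2, with an adjusted p of up to 0.14. Of 35 tested further interferon-stimulated genes, 4 were called higher, namely the chemokines CXCL10 (0 TPM in the early samples, 1.20 to 1.77 TPM in the late ones) and CCL5 (0.07 TPM or less, then 3.22 to 6.91 TPM) and the apolipoproteins APOL1 and APOL6, which stayed at 0.46 TPM or less. The call of APOL1 was lost in 10 and that of APOL6 in 8 of 18 alternatives, including both TPM scales, with an adjusted p of up to 0.37 and 0.17. CCL5 was at least 52.5-fold and CXCL10 at least 13.3-fold higher in the late lines. DDX60, a helicase that assists RIG-I, was called in P4 over P1 hESCs only (2.35 ± 0.35), at 4.67 and 10.9 TPM in P4 hESCs.

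Between P4 and P3 hESCs, SOCS1, a feedback inhibitor of JAK kinases, was called higher (1.96 ± 0.28, adjusted p = 0.0024 by the quasi-likelihood test of edgeR), at 2.76 and 3.56 TPM in P3 and 10.6 and 16.3 TPM in P4 hESCs. TLR3, the endosomal sensor of double-stranded RNA, was called lower in P4 hESCs (-2.96 ± 0.47, adjusted p = 0.0061), at 0.46 and 0.83 TPM in P3 and 0.08 and 0.13 TPM in P4 hESCs. Both calls were lost in some fits without a sample, that of SOCS1 without either P3 sample or without P4 replicate 2, and that of TLR3 in each of the 8 fits without a sample.

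**Figure D5:**
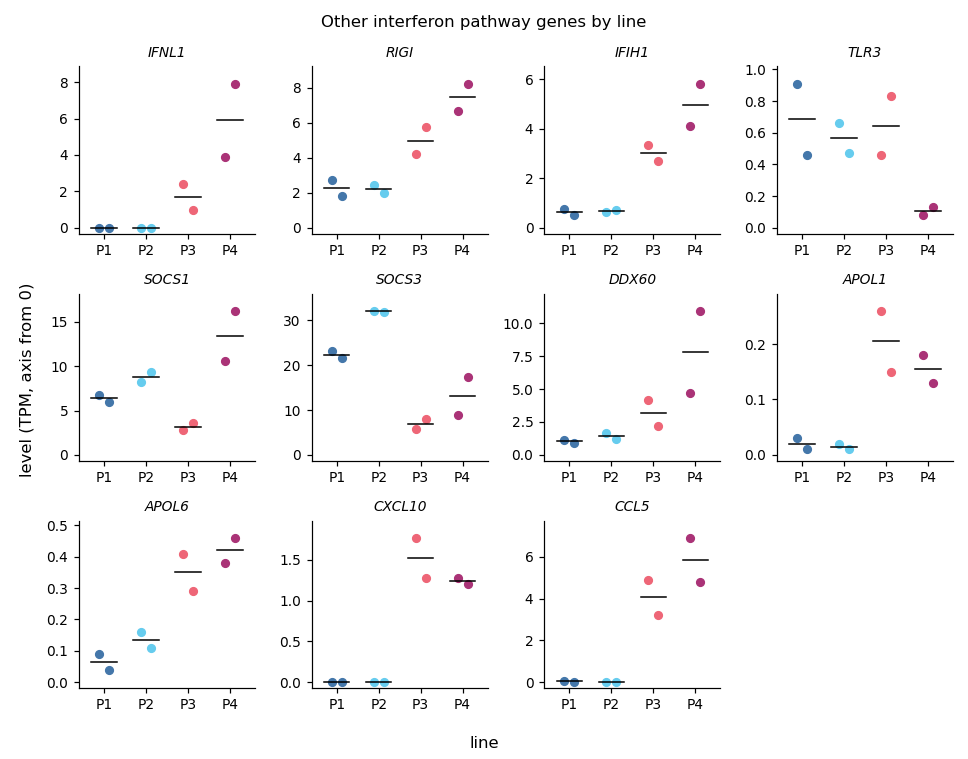
Level of the 11 other pathway genes called in at least 1 comparison in each sample (points, TPM on a linear axis from 0) by line, with the mean of the 2 samples of each line (bars). IFNL1, CXCL10 and CCL5 lie at or near 0 in P1 and P2 and at 0.98 TPM or more in every P3 and P4 sample, SOCS1 is lowest in P3, and TLR3 is lowest in P4.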

How the data were processed

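Strand-specific mRNA libraries of the 4 lines, with 2 samples each, were all used. Per the submitters' processing notes, FastQC, Trim Galore, STAR 2.7.3a and RSEM 1.3.3 were used with GRCh38 (hg38). The annotation release and the strand setting of the counting are not given in the sources used here. The authors deposited for each gene the expected count of RSEM without normalization, and the authors also gave its TPM value, scaled by effective length and to the same total in each sample.

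Expected counts, rounded to whole numbers, were tested with edgeR 4.0.16 in R 4.3.3 (TMM factors, filterByExpr with the 4 lines as groups, quasi-likelihood test). The late lines were compared with the early ones in a 2-group model of 4 against 4 samples, and single lines in a 4-group model. The study used DESeq2, run here as an alternative (version 1.42.0) and limma 3.58.1 was used for log2(TPM + 1) and log2(TPM + 0.1). CPM values use the TMM factors. A fold against genes with at most 3 counts in every early sample was taken against the highest CPM of 3 counts among them, 0.0945, and is a lower bound. The fits were checked on generated counts with known changes.

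The members, the pathway and marker lists and the rule for naming genes were chosen with earlier results of these data known. The rule gives every member, in full those called in a comparison and the 4 transcription factors, and of the pathway lists the genes called plus RIGI and IFIH1. Some genes of these lists are not reported here. Other pathway genes are named where they state what was not detected, and BST2, OAS3, MX1 and other uncalled members are given per sample after their values were seen. Gene positions and overlaps came from GENCODE release 29 on GRCh38, and promoter sequences from RefSeq. Python 3.11.15 with pandas 2.3.3 and matplotlib 3.10.9 made the summaries and figures.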

Additional observations from a re-analysis of the deposited data

Results flagged for a closer look

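In 65 groups of 4 samples (the early or the late samples of 1 member on the log2 CPM scale), 5 had a sample that stood apart from the other 3 by more than Dixon's critical value. Chance gives about 1 in 20, or 3.25 of 65. In the late lines this was OAS1 in P3 replicate 2, at 1.45 CPM against 3.48 to 3.81 CPM (gap over range 0.904). In the early lines it was IRF9 in P1 replicate 2 (9.42 against 5.16 to 5.67 CPM, 0.843), DTX3L in P1 replicate 2 (6.71 against 10.6 to 10.8 CPM, 0.959), DHX58 in P2 replicate 2 (3.33 against 2.65 to 2.68 CPM, 0.949) and EPSTI1 in P2 replicate 2 (1.04 against 0.774 to 0.788 CPM, 0.939). P1 replicate 2 has a mitochondrial share of 18.5%, whose part in its values was not tested.

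P4 and P3 hESCs differed by edgeR's quasi-likelihood test in TRIM22 (log2 fold change 1.79) among the members and in SOCS1 (1.96) and TLR3 (-2.96) among the other pathway genes. For TRIM22 and SOCS1 the lowest level of the 4 lines was in P3 hESCs, and for TLR3 it was in P4 hESCs.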

How the results depend on the processing

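The number of members called in P3 and P4 over P1 and P2 hESCs, 11, was 6 with log2(TPM + 1) in limma, 4 without the 3 samples of over 15% mitochondrial counts (an alternative chosen after seeing the data) and between 9 and 12 when 1 sample was left out. For P3 over P1 hESCs it was 12, with 4 for log2(TPM + 1), 7 for log2(TPM + 0.1) and 7 to 13 without a sample. For P4 over P1 hESCs it was 11, with 4 for log2(TPM + 1) and 6 to 11 without a sample. For P4 over P3 hESCs it was 1, with 2 for DESeq2, for no filter on low counts and for an adjusted p under 0.05 without a minimum fold change, 0 for log2(TPM + 1), log2(TPM + 0.1) and a fit of these 4 samples alone, 0 to 1 without a sample and 8 without the 3 samples, a fit whose spread comes from P2 hESCs alone. For P2 over P1 hESCs it was 0 in every fit. On the log2(TPM + 0.1) scale the median of all genes moved to -0.14 in the late over the early lines, so that values on this scale are relative to it. No called log2 fold change of a named gene changed sign under an alternative. The cause of the other changes was not tested, except that fewer samples were used where samples were left out. The share of all genes called is not given beside these counts of members. They show only how the number of called members moved between fits.

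With the replicate number as a block, 10 members were called in the late over the early lines, 12 in P3 and 11 in P4 over P1 hESCs, 0 in P4 over P3 hESCs and 0 in P2 over P1 hESCs. The share of all genes called with the block is not given here. The replicate numbers were not shown to pair the samples, since the replicate differences of 2 lines correlated across genes with r between -0.09 and 0.14.

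At these depths a member with at most 3 counts in a sample was read as not detected.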
